A study of Mus musculus with 20 samples.

Results

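Mouse lines 589bm and 595sp, which the labels call derived from multiple myeloma, were compared in how their bortezomib-sensitive cultures answered the drug. The comparison took the mean of the arrays at 8, 16 and 24 h minus the mean of those at 0 and 2 h within each line, and then subtracted the 595sp value from the 589bm value. It used 10 of the 20 arrays of the series, chosen by their titles and not by any measured value. Per the labels, both lines were Bcl-XL/Myc double transgenic, on a background of FVBN crossed with BL/6. The 4 groups were 589bm at 8, 16 and 24 h of 33 nM bortezomib, 589bm untreated at 0 h and at 2 h of the drug, 595sp at 8, 16 and 24 h, and 595sp untreated at 0 h and at 2 h. There was 1 array for each line and time, and the labels name no separate cultures. The p-values therefore measure the spread between times within a line, which may be technical, and not the spread between cultures. No untreated array after 0 h was analysed here, so drug and time in culture cannot be told apart.

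Bortezomib blocks the proteasome, the complex that degrades ubiquitin-tagged proteins. Undegraded and misfolded proteins then activate the heat shock response, the integrated stress response with its transcription factor ATF4, and the unfolded protein response of the endoplasmic reticulum (ER). Myeloma cells are malignant plasma cells with a heavy load of secreted protein, and bortezomib is in clinical use against the disease.

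Total RNA was measured as 1-colour bead intensity. All values are log2 intensities after background correction and quantile normalization, and the median of all 45281 probes was 6.50, a level at which a probe carried little signal. The brighter 22641 probes were tested, and 11750 genes had a tested probe. Between arrays of 589bm the correlation was 0.953 to 0.981, between arrays of 595sp 0.964 to 0.990, and across the lines 0.928 to 0.956. By correlation the 589bm 8 h array was nearest to the 589bm 0 h array, whereas the 595sp 8 h array was nearest to the 595sp 16 h array. On the early arrays 899 genes differed between the lines by over 1 on the log2 scale. Among plasma cell markers, Mzb1 lay at 14.35 in 589bm and 14.19 in 595sp over the early arrays, and Irf4 at 8.61 and 9.07, but Sdc1 lay at 6.62 and 7.18, and Prdm1, Jchain and Tnfrsf17 lay near the median of all probes. The B cell gene Cd79b was bright at 12.81 and 12.55, and Igll1, the surrogate light chain of pre-B cells, lay at 6.95 in 589bm and 13.59 in 595sp. The B cell genes Ms4a1 and Pax5 lay near the median, at means of 6.67 and 6.63 over the 10 arrays. Of the T cell markers Cd3g was bright (10.92 and 9.97) while Cd3d and Cd3e were near the median, and Lyz2, Mpo, Col1a1, Col3a1 and Dcn stayed near it as well. Over 1 log2 unit above that median lay 16 of 23 plasma cell genes in 589bm and 15 in 595sp, and 15 and 20 of 29 B cell genes. So did 3 of 13 T cell markers in 589bm and 4 in 595sp, and 1 and 2 of 14 macrophage and granulocyte markers. It held for 1 and 2 of 13 stromal markers, and for none of 7 erythroid markers in either line.

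Many genes responded in each line, and the responses overlapped in part. In 589bm 1270 probes (5.61%) were called at 8 to 24 h, 612 higher (2.7%) and 658 lower (2.91%), and in 595sp 1088 (4.81%), 527 higher (2.33%) and 561 lower (2.48%) (limma, Benjamini-Hochberg adjusted p under 0.05, which is what called means here). With each array scaled to its median in place of quantile normalization, the split was 266 higher and 880 lower in 589bm and 211 higher and 1880 lower in 595sp, and the median of all probes shifted by -0.095 in 589bm and -0.135 in 595sp. No probe was called for the difference between the lines (0 of 22641, 0%), and the smallest adjusted p was 0.0769. Median scaling called 20 probes for it, and 22 each were called without background correction and on the deposited series matrix values. Unadjusted, 1407 probes (6.21%) had a p under 0.05, 649 with the larger value in 589bm and 758 with the smaller. The median SE of the difference was 0.26, and 197 probes differed by over 1 on the log2 scale.

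Counted by 1 probe per gene, 173 genes rose and 145 fell in both lines, and no gene was called in opposite directions. The 173 are 43.4% of the genes that rose in 589bm and 45.9% of those that rose in 595sp, and the 145 are 34.6% and 38.5% of those that fell. Another 500 genes were called in 589bm alone and 436 in 595sp alone. Of these, 452 (90.4%) and 389 (89.2%) had the same sign in the other line. Among the 10496 genes called in neither line, 6710 (63.9%) had the same sign in both. Most calls in 1 line alone were thus of genes that leaned the same way in the other without passing. Across the 11750 genes, which are not independent replicates, the responses had a Pearson r of 0.66 and a Spearman rho of 0.55. The median size of the line difference was 0.20 over the 318 genes called in both lines.

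**Figure D1:**
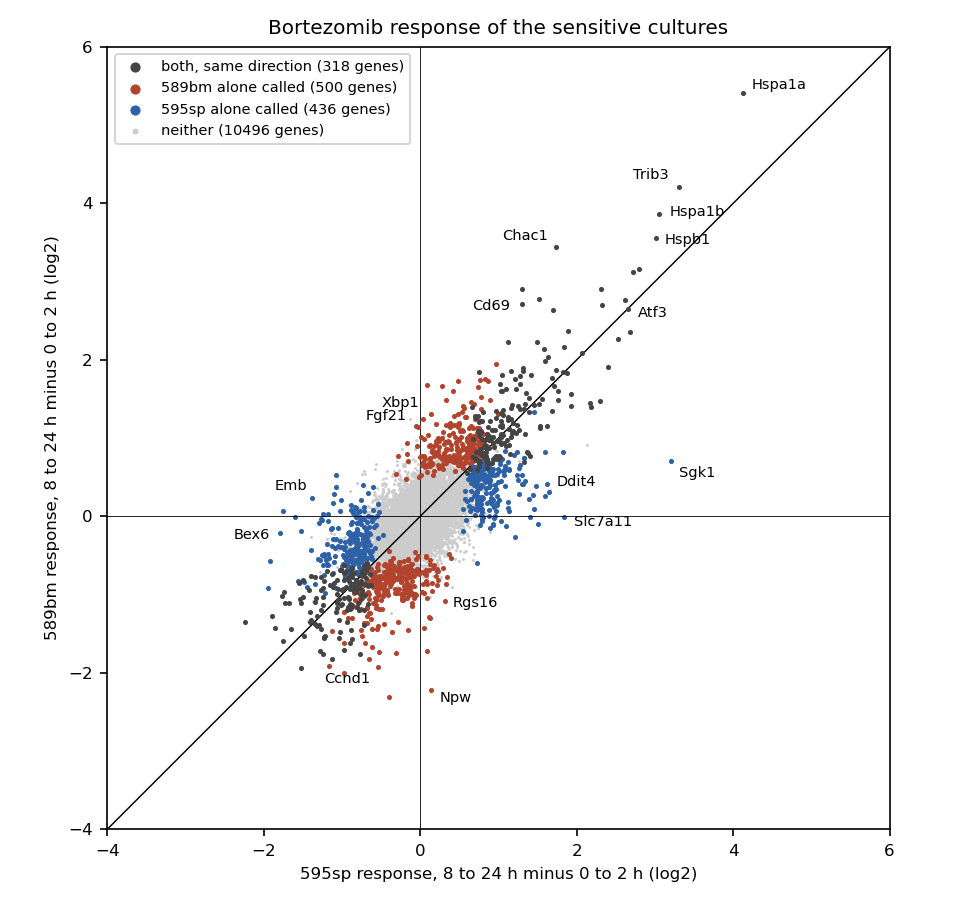
Response of 589bm (vertical axis) against that of 595sp (horizontal axis) for 11750 genes, each as the mean log2 intensity at 8 to 24 h minus that at 0 to 2 h, coloured by the line or lines in which the gene was called. Genes called in both lines lie along the diagonal of equal response, and Sgk1, Slc7a11 and Ddit4 lie to its right while Chac1, Cd69 and Hspa1a lie above it.

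The counts depended on single arrays. Without the 589bm 8 h array 58 probes passed for the line difference, without the 589bm 16 h or 2 h array 3 and 1, and without any other array none. With the 16 and 24 h arrays alone as the late group 59 passed. When the arrays of the resistant cultures were added to estimate the spread (19 arrays, 8 group means), 28 probes (0.124%) passed, 12 higher (0.053%) and 16 lower (0.0707%) in 589bm, and 1670 (7.38%) had an unadjusted p under 0.05. The 28 had differences of 1.20 to 2.50 in size. Of these, 23 had a single gene symbol, from 19 genes. Without the 595sp 0 h array that fit called 3 probes, without the 595sp 2 h array 5, without the 589bm 0 h array 12, without the 589bm 2 h array 15, without the 595sp 8 h array 55 and without the 589bm 8 h array 78. The genes described next are mostly those 19 and others with large differences in the 10-array fit, all chosen after their values were seen, as were the examples from gene lists other than each list's largest difference. Each adjusted p for a difference is from limma over all tested probes.

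Several genes were called as risen in 595sp and not in 589bm. Sgk1, a serum- and glucocorticoid-induced kinase, read 7.16, 7.13, 7.20, 8.19 and 8.18 in 589bm at 0, 2, 8, 16 and 24 h, against 8.59, 8.70, 10.94, 12.13 and 12.48 in 595sp. All late 595sp arrays lay above all 589bm arrays, and 589bm gained 0.05 at 8 h, 1.05 at 16 h and 1.04 at 24 h over its early mean. Its response was 0.71 in 589bm (adjusted p = 0.311, limma) and 3.20 in 595sp (adjusted p = 0.000289), a difference of -2.49 (SE 0.52) with adjusted p = 0.183 in the 10-array and 0.0344 in the 19-array fit. With time point as a replicate block shared by the lines, the SE was 0.25 and the limma adjusted p 0.0177, so this call depended on the fit.

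Slc7a11, the transport subunit of the cystine-glutamate exchanger and a target of ATF4, read 6.20, 6.70, 6.17, 6.64 and 6.50 in 589bm at these times, against 7.06, 7.37, 9.41, 8.82 and 8.91 in 595sp. In 589bm it stayed near the median of all probes throughout, and in 595sp every late array exceeded every early one. The difference in response was -1.85 (SE 0.32, limma adjusted p = 0.0946, and 0.0102 with 19 arrays). Of its 4 tested probes 3 had this sign, and another, near the median of all probes, gave 0.25. Ddit4, an inhibitor of the growth kinase mTORC1, read 11.40, 11.30, 11.93, 11.49 and 11.55 in 589bm, against 9.23, 9.01, 10.83, 10.66 and 10.79 in 595sp. It was already high in 589bm, where it changed by 0.31, and in 595sp it rose by 1.64 towards that level (difference -1.33, limma adjusted p = 0.122), so the late arrays of the lines lay closer together than the early ones. AA467197 rose by 1.45 in 595sp (limma adjusted p = 0.000922) and lay near the median in 589bm, and Bbc3, the pro-apoptotic protein PUMA, had a response of 0.47 in 589bm and was called in 595sp at 1.25, from early means of 10.20 in 589bm and 7.82 in 595sp. Its other 2 tested probes, both dimmer, gave responses of 0.33 and 0.060 in 589bm and 0.21 and 0.19 in 595sp, and line differences of 0.12 and -0.13.

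Other genes fell in 595sp and were not called in 589bm. Emb, embigin, a membrane glycoprotein that escorts lactate transporters, read 7.96, 7.82, 8.13, 8.11 and 8.11 in 589bm, against 10.69, 10.53, 9.42, 9.20 and 9.05 in 595sp. The 589bm arrays stayed within a narrow range and the 595sp arrays fell at each late time, which gave a difference of 1.61 (SE 0.25, limma adjusted p = 0.0769, and 0.00525 with 19 arrays). A second tested probe of Emb, near the median of all probes, gave -0.033. Ptpn22, a phosphatase that dampens antigen receptor signals, read 8.79, 8.32, 9.01, 9.25 and 8.97 in 589bm, against 9.13, 9.15, 8.16, 7.98 and 8.04 in 595sp, so that late arrays lay above early ones in 589bm and below them in 595sp. Its difference was 1.60 (limma adjusted p = 0.0834, and 0.039 with 19 arrays), while its other 2 tested probes, near the median of all probes, gave -0.080 and -0.22. Slc15a3, a lysosomal transporter of peptides and histidine, fell by 1.52 in 595sp to the level at which it stayed in 589bm, with late values of 8.18, 8.45 and 8.45 in 589bm and 8.56, 8.46 and 8.63 in 595sp. Cd180, a Toll-like receptor homologue of B cells, had a response of -0.57 in 589bm and fell by 1.92 in 595sp, from early means of 7.17 in 589bm and 8.88 in 595sp.

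For another 5 genes that fell in 595sp, the 589bm signal was dim. Ddc, the aromatic amino acid decarboxylase, fell by 1.60 in 595sp (limma adjusted p = 0.000265), Col26a1, a collagen, by 1.76, Bex6 by 1.80 and Asb10 by 1.27. In 589bm these 4 genes averaged under the median of all probes early and late, which left no room to measure a fall. Pdgfa, a chain of platelet-derived growth factor, read 6.71, 6.28, 6.44, 7.11 and 7.06 in 589bm, against 10.92, 10.97, 9.61, 10.18 and 9.83 in 595sp. It stayed within 1 log2 unit of the median of all probes in 589bm, and fell by 1.07 in 595sp. The second tested probe of Ddc gave a difference of 1.80, in the direction of the first (1.60). That of Col26a1, near the median of all probes at a mean of 6.57, gave -0.26 against 1.83.

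Called as risen in 589bm and not in 595sp were Fgf21, a stress-induced hormone and ATF4 target, and Xbp1, the transcription factor of the unfolded protein response that plasma cells need. Fgf21 read 6.84, 7.21, 8.38, 8.08 and 8.07 in 589bm, against 6.48, 6.67, 6.49, 6.43 and 6.64 in 595sp. It rose by 1.15 in 589bm (limma adjusted p = 0.00172), and in 595sp it stayed near the median of all probes, for a difference of 1.21 (SE 0.25, adjusted p = 0.183, and 0.0319 with 19 arrays). Xbp1 read 10.02, 10.15, 11.22, 11.50 and 11.25 in 589bm, against 11.21, 11.55, 11.73, 11.16 and 11.35 in 595sp. The early arrays of 589bm were the low ones, and its late arrays reached the range of 595sp, in which late and early arrays overlapped. Its difference was 1.20 (SE 0.28), with a limma adjusted p of 0.262 in the 10-array and 0.117 in the 19-array fit. Ffar2, a receptor for short-chain fatty acids, rose by 1.14 in 589bm against a response of -0.02 in 595sp.

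Other genes were called as fallen in 589bm and not in 595sp. Ccnd1, cyclin D1, read 10.94, 11.21, 9.43, 9.03 and 8.98 in 589bm, against 7.36, 7.26, 6.74, 6.72 and 6.87 in 595sp. Late arrays lay below early ones in both lines, from a far higher start in 589bm, and the response was -1.92 in 589bm (limma adjusted p = 4.55e-05) and -0.54 in 595sp (adjusted p = 0.123). All 3 tested probes of Ccnd1 gave a negative difference, at -1.38, -1.17 and -1.40, and the 19-array fit gave an adjusted p of 0.0102. Rgs16, which shuts off G protein signals, read 10.60, 10.37, 9.46, 9.44 and 9.32 in 589bm, against 7.25, 7.28, 7.45, 7.57 and 7.70 in 595sp. Its late arrays lay below the early ones in 589bm and above them in 595sp, and the difference was -1.39 (limma adjusted p = 0.0946, and 0.0102 with 19 arrays). Ifitm1, an interferon-induced membrane protein, read 9.01, 8.78, 8.03, 7.33 and 7.46 in 589bm, against 7.56, 7.97, 7.78, 7.99 and 7.86 in 595sp, and fell by 1.29 in 589bm to the level of 595sp. Npw, a neuropeptide precursor, fell by 2.22 in 589bm and lay between 6.09 and 6.73 in 595sp, and Tdrd9, a helicase of the germ line piRNA pathway, fell by 1.44 in 589bm and lay between 6.79 and 7.08 in 595sp. In 595sp Npw, Tdrd9 and Ccnd1 lay within 1 log2 unit of the median of all probes, which left little room to measure a fall there.

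Sipa1l1, a regulator of Rap GTPases, leaned in opposite directions. It read 10.14, 10.29, 9.64, 9.38 and 9.84 in 589bm, against 10.69, 10.72, 11.27, 11.48 and 11.55 in 595sp. Late and early arrays did not overlap in either line, and they were lower late in 589bm and higher late in 595sp. The response was -0.60 in 589bm (limma adjusted p = 0.0674) and 0.73 in 595sp (adjusted p = 0.0325), so only the rise in 595sp was called, and the difference of -1.33 had an adjusted p of 0.122 in the 10-array and 0.0124 in the 19-array fit. The other tested probe, near the median of all probes, gave -0.61.

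**Figure D2:**
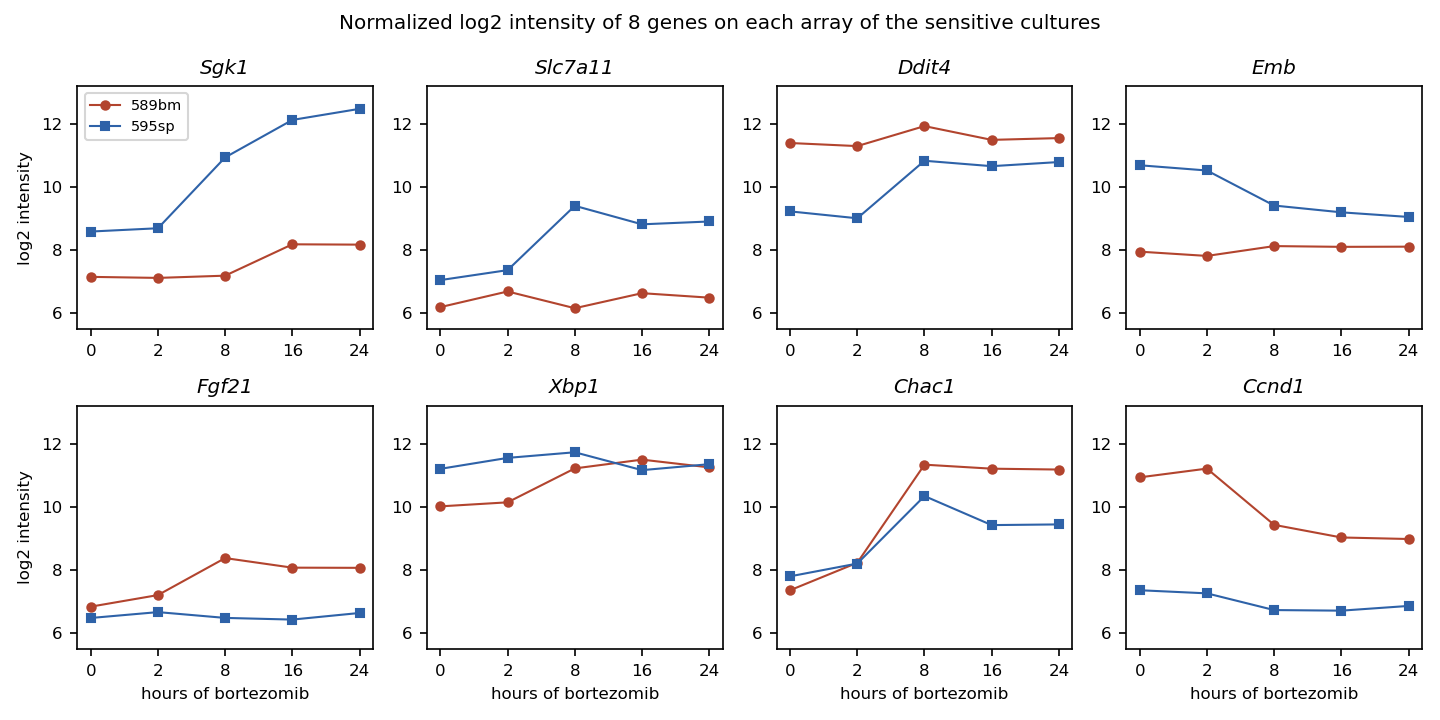
Normalized log2 intensity of Sgk1, Slc7a11, Ddit4, Emb, Fgf21, Xbp1, Chac1 and Ccnd1 on each of the 10 arrays, against hours of bortezomib (times spaced evenly), with 589bm as circles and 595sp as squares and 1 array per point. Sgk1, Slc7a11 and Ddit4 climb in 595sp, Fgf21 climbs in 589bm, and Chac1 climbs in both lines and reaches higher values in 589bm.

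Many heat shock genes rose in each line, and the median response was higher in 589bm. Of 25 tested heat shock and co-chaperone genes, 13 rose in 589bm and 10 in 595sp and none fell, where 3.4% of all genes rose in 589bm and 3.21% in 595sp. Their median response was 1.20 in 589bm and 0.51 in 595sp, and their median line difference 0.53, with 20 members above 0 and 5 below, against a median of -0.01 over all genes. Of all 11750 genes 5787 had a line difference above 0 and 5963 below, against which such counts in later lists are read. No member was called for the difference. Unadjusted, 7 had a p under 0.05 with the larger value in 589bm and 1 with the smaller, where 3.27% and 3.82% of all genes did. The 5 members below 0 were Dnajb6, Hsf2, Ahsa1, Hspb8 and Dnajb2.

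Hspa1a, the inducible cytosolic Hsp70 chaperone, read 6.74, 7.0, 10.98, 12.86 and 13.01 in 589bm, against 6.64, 6.75, 10.60, 10.99 and 10.87 in 595sp. At 8 h the lines were close, and at 16 and 24 h both 589bm arrays lay above both 595sp arrays. The response was 5.41 in 589bm and 4.13 in 595sp, a difference of 1.29 (95% interval 0.03 to 2.54, limma adjusted p = 0.785). With the 16 and 24 h arrays alone as the late group it was 1.80 with an adjusted p of 0.0148, and without the 589bm 8 h array 1.92 with an adjusted p of 0.00636, the lowest of its alternatives, which reached 0.9999. Hsph1, an Hsp110 chaperone, rose by 2.77 in 589bm and 1.52 in 595sp, and Dnajb1, an Hsp40 co-chaperone, by 2.23 and 1.12. Chordc1, an Hsp90 co-chaperone, rose by 1.81 and 1.05. Hspa1b, the near-identical copy of Hspa1a that probes may not separate from it, rose by 3.86 and 3.05, and Hspb1, from the family of small heat shock chaperones, by 3.56 and 3.01. Bag3, the co-chaperone of autophagy, rose by 2.76 and 2.62. The member with the largest difference was Hspe1, the mitochondrial Hsp10, at 1.36 (limma adjusted p = 0.653), and its 589bm values of 10.95, 9.74, 12.20, 11.33 and 11.23 include a low 2 h array, without which the difference was 0.76.

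Many targets of ATF4 and the integrated stress response rose in each line as well, and none was called for the line difference in the 10-array fit. Of 38 tested members 23 rose in 589bm and 19 in 595sp, and none fell, where 3.4% and 3.21% of all genes rose. The median response was 1.21 in 589bm and 0.76 in 595sp, and the median line difference 0.24, with 29 members above 0 and 9 below. Unadjusted, 8 members had a p under 0.05 with the larger value in 589bm and 3 with the smaller, where 3.27% and 3.82% of all genes did. These 3 were Slc7a11, Ddit4 and Cebpb, a transcription factor that rose by 1.90 in 589bm and 2.40 in 595sp.

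Chac1, which degrades glutathione, read 7.36, 8.23, 11.34, 11.21 and 11.18 in 589bm, against 7.80, 8.21, 10.34, 9.42 and 9.45 in 595sp. The early arrays overlapped between the lines, and every late 589bm array lay above every late 595sp array. It rose by 3.45 in 589bm and 1.73 in 595sp, with a difference of 1.71 (SE 0.41, limma adjusted p = 0.28, and 0.0775 with 19 arrays). Trib3, a pseudokinase induced by stress, rose by 4.21 in 589bm and 3.31 in 595sp, and Sesn2, a stress-induced inhibitor of mTORC1 signalling, by 1.85 and 0.75. The other 2 tested probes of Sesn2, both dim, gave line differences of 0.62 and -0.13. Mthfd2, of mitochondrial folate metabolism, rose by 1.49 in 589bm against a response of 0.33 in 595sp, and Asns, asparagine synthetase, rose by 1.39 and 0.66. Several other members were close to equal. Atf3, a stress-induced transcription factor, rose by 2.65 in 589bm and 2.65 in 595sp, with a 95% interval of the difference of -1.05 to 1.05, and Ddit3, the transcription factor CHOP, by 3.16 and 2.80 (-0.36 to 1.09). Without the 589bm 0 h array the Ddit3 difference was -0.030.

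The promoters of Slc7a11, which rose in 595sp, Fgf21, which rose in 589bm, and Chac1 and Trib3, which rose in both lines, are shown as examples of ATF4 targets called in different lines. Those of other members called in 1 line alone, such as Ddit4 and Mthfd2, are not shown. Each is the RefSeq window of GRCm38.p6 from 250 bases before to 50 after the annotated start, written 5′ to 3′ along the gene, at chr3:50443564-50443863 (minus strand), chr7:45615441-45615740 (minus strand), chr2:119350992-119351291 (plus strand) and chr2:152344011-152344310 (minus strand). Capitals mark matches to TGATGNAA, the core of the composite site of ATF4 and C/EBP proteins, searched on both strands.
Slc7a11: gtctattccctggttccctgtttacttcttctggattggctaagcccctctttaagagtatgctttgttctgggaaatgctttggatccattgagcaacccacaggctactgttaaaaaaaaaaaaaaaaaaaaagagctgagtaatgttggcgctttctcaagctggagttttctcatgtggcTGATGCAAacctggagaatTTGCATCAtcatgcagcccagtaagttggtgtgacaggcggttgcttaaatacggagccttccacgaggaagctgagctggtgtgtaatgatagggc
Fgf21: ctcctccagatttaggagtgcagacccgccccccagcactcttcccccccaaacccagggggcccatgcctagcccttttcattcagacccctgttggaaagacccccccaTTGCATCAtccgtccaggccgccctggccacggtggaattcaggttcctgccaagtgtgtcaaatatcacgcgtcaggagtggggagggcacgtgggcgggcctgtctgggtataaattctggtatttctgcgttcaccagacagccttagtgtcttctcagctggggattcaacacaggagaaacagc
Chac1: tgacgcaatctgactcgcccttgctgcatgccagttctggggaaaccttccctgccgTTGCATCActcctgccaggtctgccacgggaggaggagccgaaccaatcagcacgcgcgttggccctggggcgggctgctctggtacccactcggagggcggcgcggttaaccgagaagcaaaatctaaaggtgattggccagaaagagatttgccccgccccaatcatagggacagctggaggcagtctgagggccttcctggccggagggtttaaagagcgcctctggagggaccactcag
Trib3: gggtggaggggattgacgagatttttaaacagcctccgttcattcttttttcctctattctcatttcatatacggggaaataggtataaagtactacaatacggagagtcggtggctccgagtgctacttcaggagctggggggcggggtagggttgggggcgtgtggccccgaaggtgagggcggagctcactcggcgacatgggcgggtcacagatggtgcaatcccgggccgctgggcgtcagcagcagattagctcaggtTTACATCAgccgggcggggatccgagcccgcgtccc
Slc7a11 had 2 matches facing each other, and Fgf21, Chac1 and Trib3 had 1 each. Matches stood in 3.97% of 32851 RefSeq promoters (1304), and in the promoters of 13 of 36 members of the ATF4 list (36.1%), where 4.51% of all genes had one. Among these 4 picked genes the match stood in 1 called in 595sp alone, in 1 called in 589bm alone and in 2 called in both lines. Whether it is more frequent in targets called in 1 line was not tested.

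**Figure D3:**
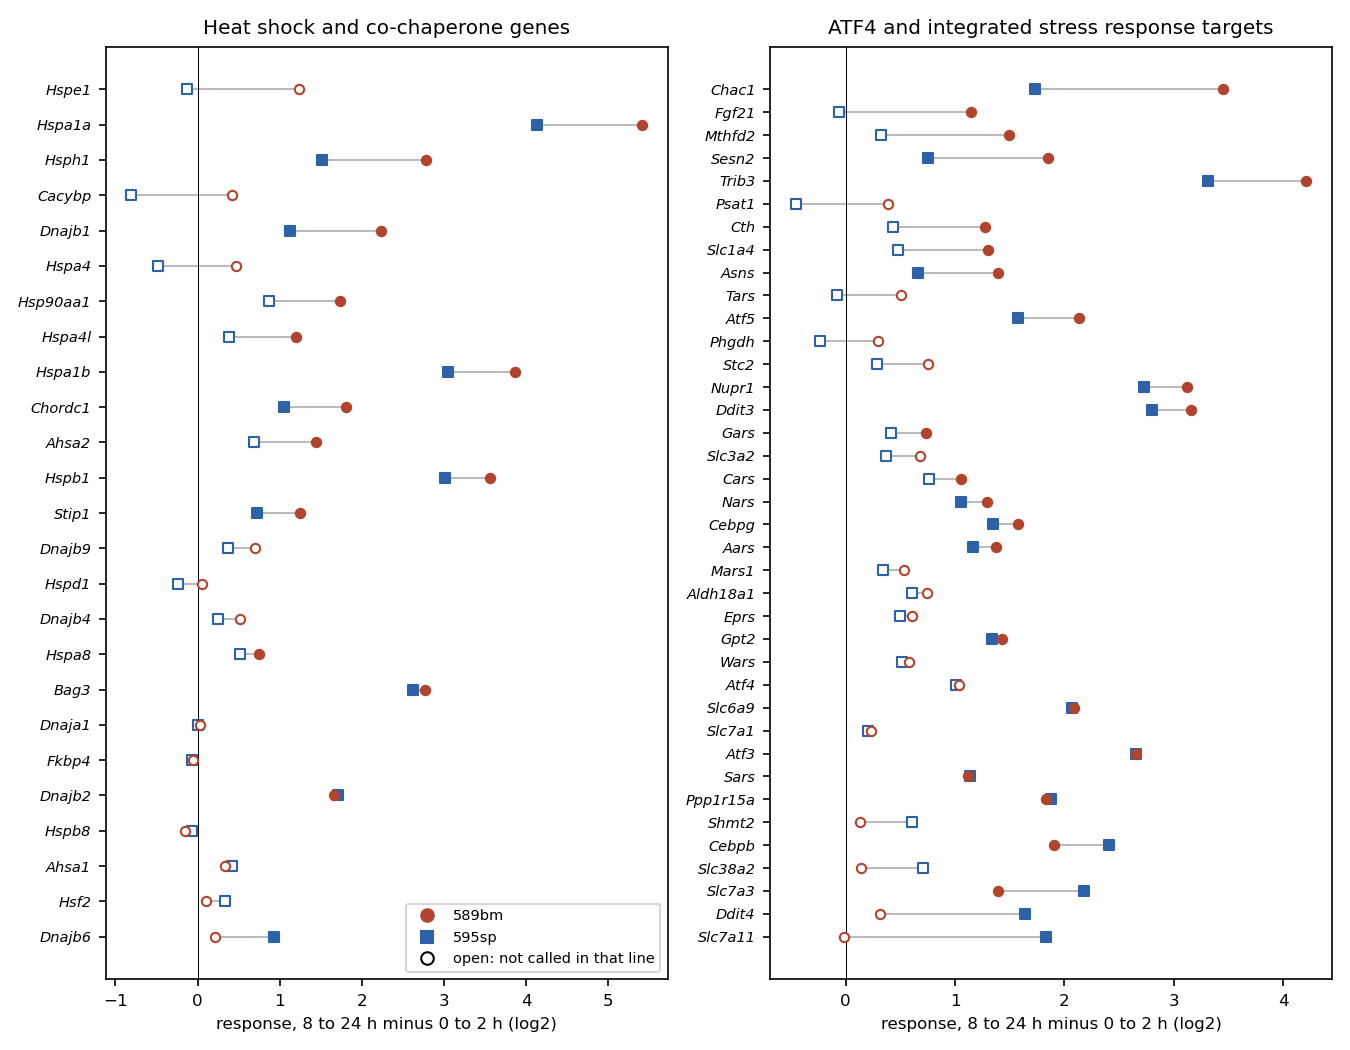
Response of each tested heat shock gene (left) and ATF4 target (right), as log2 intensity at 8 to 24 h minus that at 0 to 2 h, with 589bm as circles and 595sp as squares, filled where the gene was called in that line. Genes run from the largest difference at the top to the smallest at the bottom, and Chac1, Fgf21 and Mthfd2 lead the ATF4 targets while Slc7a11 and Ddit4 close them.

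Proteasome genes had close medians in the lines. Of 31 tested subunits and assembly factors 11 rose in 589bm and 9 in 595sp, where 3.4% and 3.21% of all genes rose, with medians of 0.59 and 0.55. The median line difference was 0.05, with 19 members above 0 and 12 below. Psmd4, a ubiquitin receptor of the proteasome, rose by 1.34 in 589bm and 1.39 in 595sp, and Psmc3, an ATPase of its base, by 1.27 and 1.12. Psmb5, the subunit that bortezomib binds, was called in neither line, with responses of -0.19 and 0.02 and a 95% interval of the difference of -1.14 to 0.72. The largest difference in this list was of Psmd14, the deubiquitinase of the lid, at 1.17 (limma adjusted p = 0.59), whose 589bm value at 2 h was 8.92 against 9.74 at 0 h, and which was 0.76 without that array. Among 16 ubiquitin handling genes 7 rose in 589bm and 6 in 595sp, against the same shares. Zfand2a, which delivers proteins to the proteasome under stress, rose by 2.17 and 1.84, Ufd1, of the p97 pathway, by 1.80 and 1.28, and Uchl1, a deubiquitinase, by 1.48 and 2.30. Usp14, a deubiquitinase at the proteasome, had the largest difference of this list at 0.86. Sqstm1, the autophagy receptor p62, rose by 2.70 in 589bm and 2.32 in 595sp.

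In the ER few chaperone genes were called, and most line differences were small and above 0. Of 25 tested ER chaperone and degradation genes 3 rose in 589bm and 1 in 595sp, where 3.4% and 3.21% of all genes rose. The medians were 0.25 in 589bm and -0.02 in 595sp. Of the 25 line differences 22 were above 0, with a median of 0.27, where 5787 of all 11750 genes were above 0. Herpud1, of ER-associated degradation, rose by 1.08 in 589bm and 0.74 in 595sp, Sel1l, a ligase subunit of that pathway, rose by 0.85 in 589bm against a response of 0.47 in 595sp, and Xbp1 was the member with the largest difference. Hspa5, the ER chaperone BiP, was dim on these arrays at 6.94 in 589bm and 7.41 in 595sp early, and was called in neither line.

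**Figure D4:**
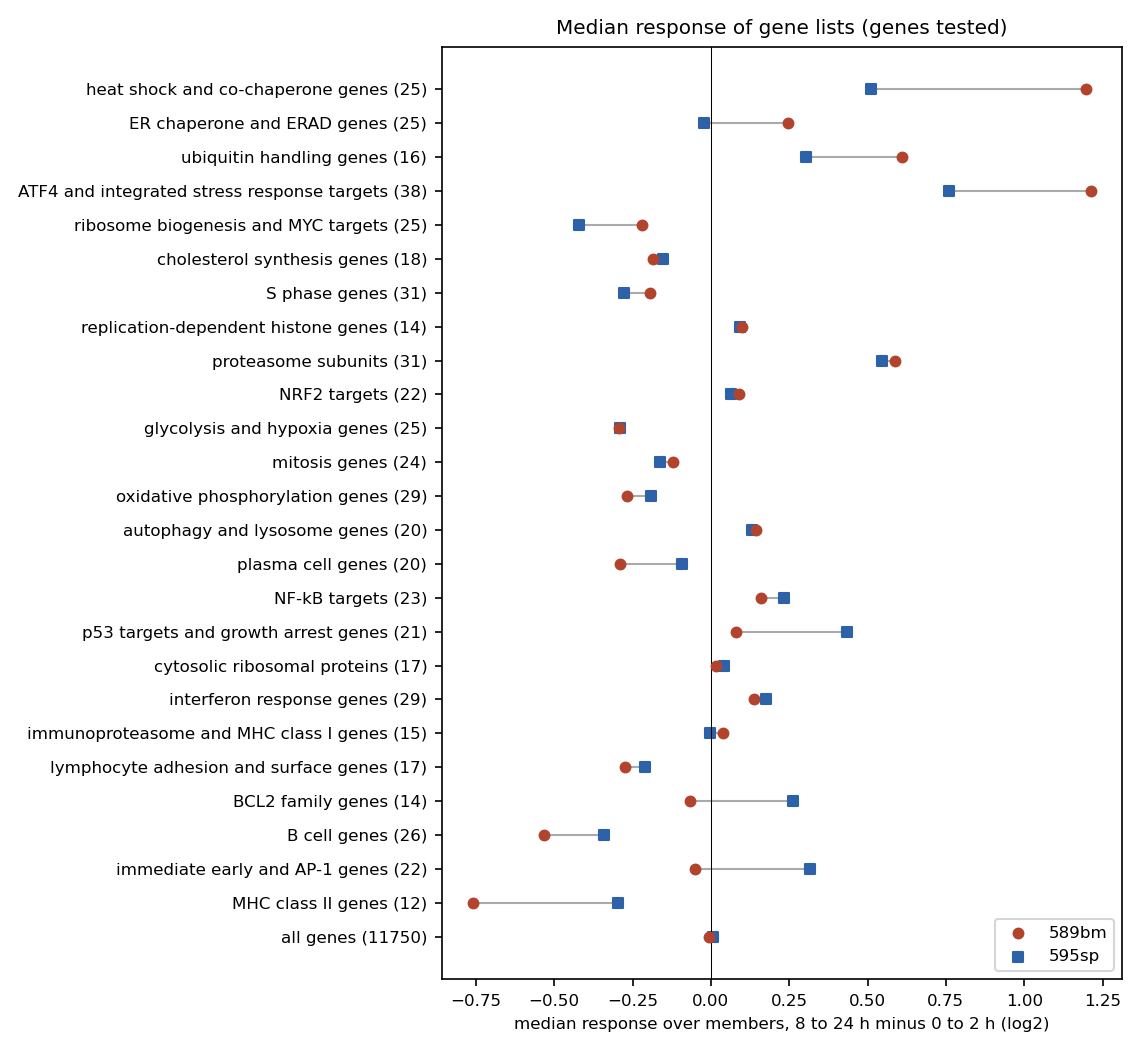
Median response of the tested members of each gene list in 589bm (circles) and 595sp (squares), as log2 intensity at 8 to 24 h minus that at 0 to 2 h, with the number of members tested in brackets. ATF4 targets have the highest median in each line, followed by heat shock genes in 589bm and proteasome subunits in 595sp, MHC class II genes have the lowest of those shown in 589bm, marker lists of other cell types are left out, and the medians of all genes lie at -0.01 in 589bm and 0.01 in 595sp.

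MHC class II genes, which present antigen on B cells, were called as fallen in 589bm but not in 595sp, and none was called for the line difference. Of 12 tested MHC class II genes 5 fell in 589bm, where 3.57% of all genes fell, and none fell in 595sp, where 3.21% did. Their medians were -0.76 and -0.30. Unadjusted, 4 members had a p under 0.05, all with the smaller value in 589bm, where 3.82% of all genes did. H2-Eb1, a class II beta chain, fell by 0.95 in 589bm against a response of -0.13 in 595sp, and H2-Ob, a chain of the peptide-loading regulator H2-O, fell by 0.74 against 0.07. H2-Ab1 read 12.56, 12.51, 12.13, 11.64 and 11.11 in 589bm, against 11.31, 11.20, 11.58, 11.16 and 10.81 in 595sp, and was called in neither line. Its 589bm arrays were lower at each later time and ended near the level of 595sp. The line difference was above 0 for 3 members. H2-Ea rose by 1.48 in 589bm against a response of 0.90 in 595sp, and the responses of H2-Aa were -0.78 and -1.41 and those of Ctss, a lysosomal protease, -0.10 and -0.64.

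B cell genes fell in similar number, 10 of 26 in 589bm and 9 of 26 in 595sp, where 3.57% and 3.21% of all genes fell, with medians of -0.53 and -0.34. Cd79b, of the B cell receptor, fell in both, with responses of -1.0 in 589bm and -0.75 in 595sp, as did Cd22, its inhibitory coreceptor, with -1.11 and -1.68, and Bcl11a, which B cell development requires, with -0.97 and -1.74. Spib, a transcription factor of mature B cells, had responses of -0.75 in 589bm, which was called, and 0.08 in 595sp, and those of Igll1 were -0.31 in 589bm, where it was dim, and -0.91 in 595sp, which was called. The limma adjusted p of the difference was 0.599 for Spib and 0.725 for Igll1. The other tested probe of Spib, dimmer at a mean of 7.28, gave -0.12 in 589bm and 0.079 in 595sp, a line difference of -0.20. Among 20 plasma cell genes 3 fell in 589bm and 2 in 595sp, against the same shares. Il6ra, the receptor for the myeloma growth factor IL-6, fell by 0.99 in 589bm against a response of -0.11 in 595sp by its brightest probe. Its other 2 tested probes gave responses of -0.039 and -0.086 in 589bm and 0.18 and 0.21 in 595sp, and line differences of -0.22 and -0.29. Cd93, a surface glycoprotein, fell in both lines, with responses of -1.62 and -0.90. The other tested probe of Cd93 gave -0.84 in 589bm and -1.43 in 595sp, so that the line difference was -0.72 by 1 probe and 0.58 by the other. Cd69, an early activation antigen of lymphocytes, read 8.36, 8.37, 10.82, 11.42 and 10.99 in 589bm, against 11.92, 11.91, 13.25, 13.18 and 13.22 in 595sp. It rose in both lines, by 2.71 and 1.31, from a far lower start in 589bm, with a difference of 1.41 (limma adjusted p = 0.104). Its other tested probe, near the median of all probes at a mean of 6.69, gave -0.16.

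Among growth arrest and survival genes no member was called for the line difference, and the largest differences had either sign. Of 21 tested p53 targets and growth arrest genes 5 rose and 1 fell in 589bm, and 4 rose in 595sp, where 3.4% of all genes rose and 3.57% fell in 589bm and 3.21% rose in 595sp. Gadd45a, a stress-induced growth arrest gene, rose by 2.26 in 589bm and 2.52 in 595sp. Gadd45g, its relative, rose by 1.95 in 589bm against a response of 0.97 in 595sp, and Cdkn1a, the cell cycle inhibitor p21, rose by 1.53 against 0.78, with 2 other probes giving differences of -0.039 and -0.12. In the BCL2 family, Pmaip1, the pro-apoptotic protein NOXA, rose by 1.26 in 589bm and 0.96 in 595sp. Bmf, another pro-apoptotic member, read 9.40, 9.86, 8.26, 7.68 and 7.50 in 589bm, against 7.36, 7.62, 6.99, 6.55 and 6.96 in 595sp, and fell by 1.82 in 589bm against a response of -0.66 in 595sp. Bcl2l1, which encodes Bcl-XL, a transgene of these lines, was near the top of the range on every array, from 14.55 to 14.97 in 589bm and 14.44 to 14.83 in 595sp, with a 95% interval of the line difference of -0.54 to 0.48. Myc, the other transgene, responded by -0.60 in 589bm and -0.37 in 595sp and was called in neither (interval of the difference -0.82 to 0.36).

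Counts in the other lists are read against the same shares of all genes. Of 22 immediate early and AP-1 genes 3 rose in 589bm and 4 in 595sp, and 17 of their line differences were below 0, with medians of -0.05 and 0.31. Dusp5, a phosphatase of ERK, had the largest at -0.93. Of 25 glycolysis and hypoxia genes 6 fell in each line, among them Pdk1, which restrains pyruvate oxidation, by 1.40 in 589bm and 1.32 in 595sp, and Ankrd37, a hypoxia-induced gene, by 1.43 and 1.86. Of 22 NRF2 targets 6 rose in 589bm and 3 in 595sp. Gclm, of glutathione synthesis, rose by 1.60 in 589bm and 1.04 in 595sp, Srxn1, sulfiredoxin, rose by 0.71 in 589bm against a response of -0.16, and Hmox1, heme oxygenase, had a response of 0.53 in 589bm and rose by 1.07 in 595sp. Of 25 ribosome biogenesis and MYC targets 2 fell in 589bm and 4 in 595sp, with Tfrc, the transferrin receptor, down by 1.54 in 589bm and 1.48 in 595sp, and Ncl, nucleolin, having the largest difference at 0.92.

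The medians were 0.14 and 0.13 in 589bm and 595sp for autophagy and lysosome genes, 0.16 and 0.23 for NF-kB targets, 0.14 and 0.18 for interferon response genes and -0.27 and -0.21 for lymphocyte surface genes. They were -0.20 and -0.28 for S phase, -0.12 and -0.16 for mitosis, -0.27 and -0.19 for oxidative phosphorylation, -0.18 and -0.15 for cholesterol synthesis and 0.02 and 0.04 for cytosolic ribosomal proteins. Immunoproteasome and MHC class I genes had 0.04 and -0.00, replication-dependent histones 0.10 and 0.09, the BCL2 family -0.07 and 0.26, p53 targets 0.08 and 0.43 and plasma cell genes -0.29 and -0.09. Summed signals of markers of other cells moved too. The summed linear signal of 7 erythroid genes was 245 to 298 on the late and 376 to 736 on the early 589bm arrays, and 324 to 372 and 307 to 366 on those of 595sp, with Hba-a1 at 8.08 on the 589bm 0 h array and 6.51 at 2 h. The sums of 13 T cell markers, Cd3g among them, were 2517 to 3354 late and 5074 to 5280 early in 589bm, and 3918 to 5156 late and 6930 to 7281 early in 595sp. Those of 14 macrophage and granulocyte markers were 523 to 768 and 684 to 964 in 589bm, and 952 to 1308 and 1843 to 2002 in 595sp. Those of 13 stromal markers were 1133 to 2336 late and 1078 to 1098 early in 589bm, and 2578 to 3860 and 1859 to 2032 in 595sp. Late and early sums did not overlap for T cell and stromal markers in either line, for macrophage markers in 595sp and for erythroid markers in 589bm. A linear sum mostly follows its brightest members. Vim, at a mean of 10.38, was the brightest tested stromal marker. Its responses were 0.83 in 589bm and 0.99 in 595sp, called in neither, while the median of the tested stromal markers was -0.09 in each line. Cd8b1 (11.42) and Cd3g (9.61) were the brightest tested T cell markers. The part of these markers in the differences was not tested.

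Among genes called in both lines, the median change at 8 h was most of that at 16 and 24 h. The call itself favours such genes. It counts the 8 h array as late, and a change at 16 and 24 h alone widens the late spread. For the 173 genes that rose in both lines, the median change over the early mean was 0.89, 1.32 and 1.31 in 589bm at 8, 16 and 24 h, against 0.99, 1.05 and 1.16 in 595sp. For the 145 that fell it was -0.87, -1.08 and -1.05 in 589bm, against -0.83, -1.07 and -0.98 in 595sp. The heat shock list gave 1.03, 0.98 and 0.88 in 589bm, against 0.59, 0.63 and 0.52 in 595sp, and the ATF4 list 1.30, 1.14 and 1.23, against 1.01, 0.67 and 0.88, so both lists were higher in 589bm at each late time. The median change of the MHC class II genes was -0.41, -0.70 and -1.20 in 589bm, against -0.02, -0.35 and -0.51 in 595sp. With 1 array at each time of each line these time courses have no replicate check.

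The same contrast in the resistant cultures was taken as a comparison. It rested on 9 arrays, without the resistant 589bm 2 h array, on which 0.144% of probes exceeded 2 times the median against 13.4% to 20.3% on the other 19. The 595sp resistant arrays were grouped by title, since their other labels disagree with it. No probe was called (0 of 22641, 0%, limma), and 1113 (4.92%) had an unadjusted p under 0.05. Over 11750 genes, as a description, the line differences of the sensitive and the resistant cultures had a Pearson r of -0.06. Of the 19 genes named by the 19-array fit 12 had the same sign in both. Sgk1 differed by -2.50 in the sensitive and -1.13 in the resistant cultures, and Ccnd1 by -1.42 and -0.61. Slc7a11 gave -1.84 and -0.28, Emb 1.63 and -0.01 and Ptpn22 1.59 and -0.01. Among genes outside the 19, Chac1 gave 1.73 and -0.63, Cd69 1.45 and -0.90 and Trib3 0.90 and -0.75 in the sensitive and the resistant cultures. These are examples chosen with their values known, and no count of signs is given for the other genes outside the 19. The median line difference of the heat shock list was 0.53 in the sensitive and -0.18 in the resistant cultures, and that of the ATF4 list 0.24 and -0.31, against 0.02 over all genes in the resistant cultures. The test of sensitive against resistant line differences called 1 probe (0.00442%), of Sohlh1, 0 with all 20 arrays, 0 in 13 of 18 fits that left out 1 array and 7 without the sensitive 589bm 8 h array, and 1469 (6.49%) had an unadjusted p under 0.05.

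**Figure D5:**
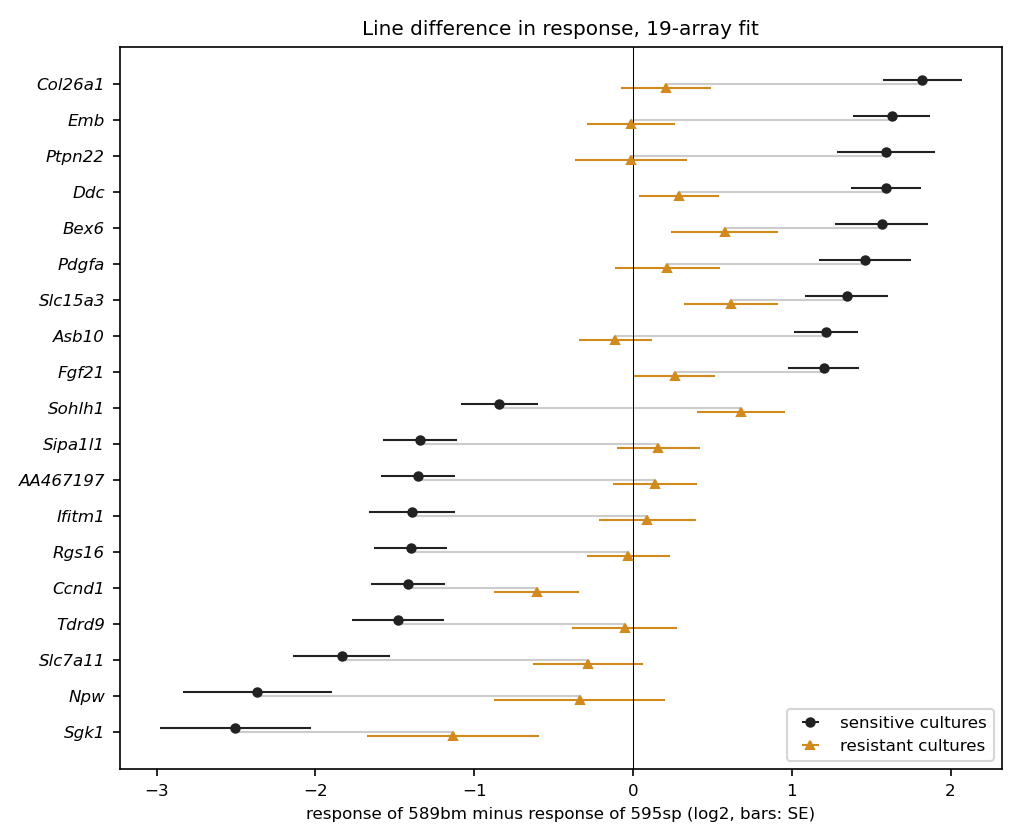
Line difference in response (589bm minus 595sp, log2) of the 19 genes with a called probe in the 19-array fit, in the sensitive (circles) and the resistant cultures (triangles), with bars of 1 SE from that fit, each by the gene's brightest tested probe. The sensitive values lie from -2.50 to 1.82, and those of the resistant cultures lie nearer to 0 for each gene. The genes were chosen by their sensitive difference, which by itself favours larger sensitive values. The early group of resistant 589bm held the 0 h array alone.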

How the data were processed

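The authors deposited non-normalized 1-colour bead array intensity values, 1 per probe and array, and a series matrix of the same arrays, and the sources used here do not give the scanner software or any background step. From the non-normalized values, normexp background correction (offset 50), log2, quantile normalization and a fit of 4 group means on 10 arrays were run in limma 3.58.1 under R 4.3.3, with Benjamini-Hochberg adjustment over the brighter 50% of probes (22641 of 45281). Arrays were grouped by title. A gene is its brightest tested probe, and 34885 probes had 1 gene symbol, 18 several and 10378 none. A fit of 8 group means on 19 arrays gave the resistant cultures, without their dim 589bm 2 h array. The scripts were tested on simulated data. Genes were to be named by rank among those called for the line difference, but none was called, so they were taken from the 19-array calls, each list's largest difference and a short set list. The members and gene lists were chosen with earlier results of these data known. Deviations of samples at the same time correlated by 0.14 at 0 h and at 2 h, -0.02 at 8 h, -0.17 at 16 h and 0.37 at 24 h. The 0 and 2 h values are equal because deviations from a mean of 2 arrays mirror each other. Since the correlation was not positive at all times, times were not treated as pairs. The number of arrays limits the precision. Alternatives are listed in the closing section.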

Additional observations from a re-analysis of the deposited data

Results flagged for a closer look

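Sohlh1, a germ cell transcription factor, was the gene of the only probe called when the line difference of the sensitive cultures was set against that of the resistant cultures, at -2.39 (SE 0.35, limma adjusted p = 0.0253). No probe was called with all 20 arrays or in 13 of the 18 fits that left out 1 array. This probe is not the brightest of its gene. It read 8.16, 8.09, 6.89, 6.71 and 6.57 in sensitive 589bm at 0, 2, 8, 16 and 24 h, and 6.36, 6.23, 6.38, 6.67 and 5.96 in sensitive 595sp. In the resistant cultures it read 5.99, 6.30, 6.45 and 6.26 in 589bm at 0, 8, 16 and 24 h, and 7.17, 7.13, 6.60, 6.41 and 6.64 in 595sp at the 5 times. The line difference was -1.44 in the sensitive and 0.95 in the resistant cultures, and most arrays lay within 1 log2 unit of the median of all probes.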

How the results depend on the processing

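For the line difference, against 0 probes, median scaling called 20 probes, no background correction and the deposited series matrix values 22 each, no filter on dim probes 9, the 0 h array alone as the early group 1, the 16 and 24 h arrays alone as the late group 59 and the 19-array fit 28. With time point as a replicate block 1 probe was called, of Sgk1, and the deviations at equal times correlated by -0.17 to 0.37. Leaving out arrays gave 0 to 58 probes (3 without the 589bm 16 h and 1 without the 589bm 2 h array), and 3 to 78 in the 19-array fit, with 12 without the sensitive 589bm 0 h, 15 without the 589bm 2 h, 5 without the 595sp 2 h and 55 without the 595sp 8 h array. The 589bm response had 1929 probes with 19 arrays, 208 with the 0 h array alone as early, 2698 with 16 and 24 h as late, and 314 to 2573 when arrays were left out, lowest without the 589bm 0 h and highest without the 589bm 8 h array, and 432, 748 and 619 without the 589bm 2, 16 and 24 h arrays, and 815 and 811 without the 595sp 0 and 2 h arrays. The 595sp response had 2091 under median scaling, 1814 with 19 arrays, 126 with 0 h alone, 2040 with 16 and 24 h, and 77 to 1758 when arrays were left out, lowest without the 595sp 0 h and highest without the 589bm 8 h array, with 153, 409 and 434 without the 595sp 2, 16 and 24 h arrays. The resistant line difference stayed at 0 in each setting run, and sensitive minus resistant had 0 with all 20 arrays and 0 to 7 when arrays were left out, highest without the sensitive 589bm 8 h array. Another probe of the gene turned the sign for Atp5a1 (-0.34), Cd44 (0.051), Cd69 (-0.16), Cdkn1a (-0.039 and -0.12), Col26a1 (-0.26), Emb (-0.033), Ptpn22 (-0.080 and -0.22) and Slc7a11 (0.25), and also for Bbc3 (0.12), Cd93 (0.58), Sesn2 (-0.13), Dnajb6 (0.49 and 0.40), Cd79b (0.10) and Bcl2l1 (0.19 and 0.075), and for Egln1, Hbb-bt, Lamp2, Psmd9 and Slamf7, which have no value in the report, and leaving out the 589bm 0 h array did for Ddit3 (-0.030). Other probes aside, 1271 of 1272 values over 61 genes kept their sign or were counted as within the error, and Ddit3 was the exception. Values counted as within the error include some of the other sign. They reached -0.10 for Hspb1, 0.33 for Atf3, 0.14 for Psmb5, 0.17 for Bcl2l1 and -0.38 for Ankrd37. The cause was not tested. Alternatives leaving out arrays of the 19-array fits were chosen after seeing the data. Dim probes limit what can be seen in the line where a gene lies near the median.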

Other observations

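The T cell receptor component Cd3g fell in both lines, with responses of -1.56 in 589bm and -1.23 in 595sp (limma adjusted p = 0.00187 and 0.0107). Of 7 tested T cell markers 1 was called as fallen in 589bm and 2 in 595sp, where 3.57% and 3.21% of all genes fell. Cd3e, near the median of all probes, had responses of 0.30 and 0.12 and was called in neither line. The amino acid transporter gene Slc7a3 rose by 1.39 in 589bm and 2.18 in 595sp, the reverse order of most ATF4 targets, with a difference of -0.78 (limma adjusted p = 0.835).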
